A study of Homo sapiens with 5 samples.

Results

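The genes of 10 receptor tyrosine kinases known as bypass routes under EGFR inhibitors were examined in gefitinib-tolerant PC9 cells. They are FGFR1, FGFR2, FGFR3, FGFR4, MET, MST1R, AXL, EPHA2, IGF1R and INSR, picked by their symbols, and make up 10 of the 27477 genes in the authors' deposited table. FGFR1 was the single gene of the 10 that passed the authors' test, higher in drug-tolerant cells. The call did not hold in 3 alternative tests, of which 1 called no gene at all and another called 1 gene in the whole table. PC9 is an established human lung adenocarcinoma line that grows on a mutant EGFR, the kinase that gefitinib blocks. Messenger RNA was sequenced from drug-tolerant cells, which had gefitinib at 50 nM for 6 days and then growth medium for another 3 days (2 libraries), and from parental cells of the same line (3 libraries). Whether the drug was still present in that medium is not stated in the sources used here. The labels also leave unstated whether libraries of 1 group came from separate cultures, so the spread behind each p-value may be technical.

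A receptor tyrosine kinase binds a ligand outside the cell and, inside it, phosphorylates itself and the adaptor proteins that dock on it. Most of these receptors feed the same RAS-ERK and PI3K-AKT routes as EGFR, so another active receptor can keep those routes running while EGFR is blocked. In EGFR-mutant lung cancer, MET amplification and signalling through AXL, FGFR1 and IGF1R are known examples of this bypass. RNA levels do not stand in for receptor protein or its phosphorylation, neither of which is analysed here.

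The authors' deposited table gives 1 mean, 1 log2 fold change and 1 test per gene, and no value per library. The whole reads of each library behind those numbers could be solved for, and this gave exactly 1 answer for all 10 receptors. The libraries are named drug-tolerant a and b and parental a, b and c, because nothing ties them to the labels' replicate numbers. Normalised reads are reads divided by the size factor of the library. Depth was estimated as the sum of the deposited means times the size factor of the library, which takes normalised totals as equal. It was about 14.2 to 20.4 M reads in drug-tolerant libraries and 17.3 to 21.4 M in parental libraries.

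Parental a stood apart from parental b and c across the transcriptome. Among 4641 resolved genes with transcripts of at least 4000 nucleotides, the median log2 ratio of parental a over the mean of parental b and c (each mean plus a pseudocount of 0.5 normalised reads, as in all log2 ratios given) was 0.51, and among 2361 genes with transcripts under 2000 nucleotides it was -0.83. All of the 10 receptors but FGFR4 (3122) and EPHA2 (3964) have transcripts longer than 4000 nucleotides, so the receptors are also compared with parental a alone and with parental b and c. Epithelial identity was plain: 11 of 12 epithelial and carcinoma markers were tested, and none was called. KRT8 had the highest mean of them, 35758 normalised reads in the authors' deposited table, while the lung factor NKX2-1 had a mean of 2.83. The 6 epithelial markers solved into reads summed to 10742 and 11228 normalised reads in drug-tolerant libraries, against 10470, 12599 and 13007 in parental libraries. Fibroblast markers summed to 175 and 170 normalised reads in drug-tolerant libraries and to 207, 127 and 158 in parental libraries, almost all of it COL1A1, and the 4 haematopoietic markers solved into reads summed to at most 31.4 in any library, with ITGAM, which was not solved, at a mean of 25.9 in the authors' deposited table. The endothelial list summed to 2487 and 2244 in drug-tolerant libraries, against 1897, 1354 and 1408 in parental libraries, nearly all of it the adhesion genes PECAM1 and CDH5, while VWF and CLDN5 had deposited means of 6.61 and 2.89 in the authors' table. The part of the library split and of these marker levels in the results on the receptors was not tested.

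Per length of transcript, the receptors covered a wide range and kept much of their order in every library. On the scale of deposited mean normalised reads per kilobase of the longest annotated transcript, EPHA2 came first at 851 and MET second at 460, ahead of MST1R at 196 and IGF1R at 98.2. INSR (45.9), AXL (44.9), FGFR4 (38.5) and FGFR1 (29.5) followed close together, and FGFR3 (2.70) and FGFR2 (0.0807) came last. EPHA2 stood above 90.1% and MET above 81.4% of the protein-coding genes tested on this scale, and FGFR1 above 19.3%. EPHA2, MET, MST1R, IGF1R and INSR kept this order in each of the 5 libraries, with IGF1R at 2.09 and 2.23 times INSR per kilobase in drug-tolerant libraries and at 2.28, 2.03 and 1.83 times in parental libraries. Neighbours from INSR down to FGFR1 changed places between libraries, so their order does not hold beyond the spread.

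**Figure D1:**
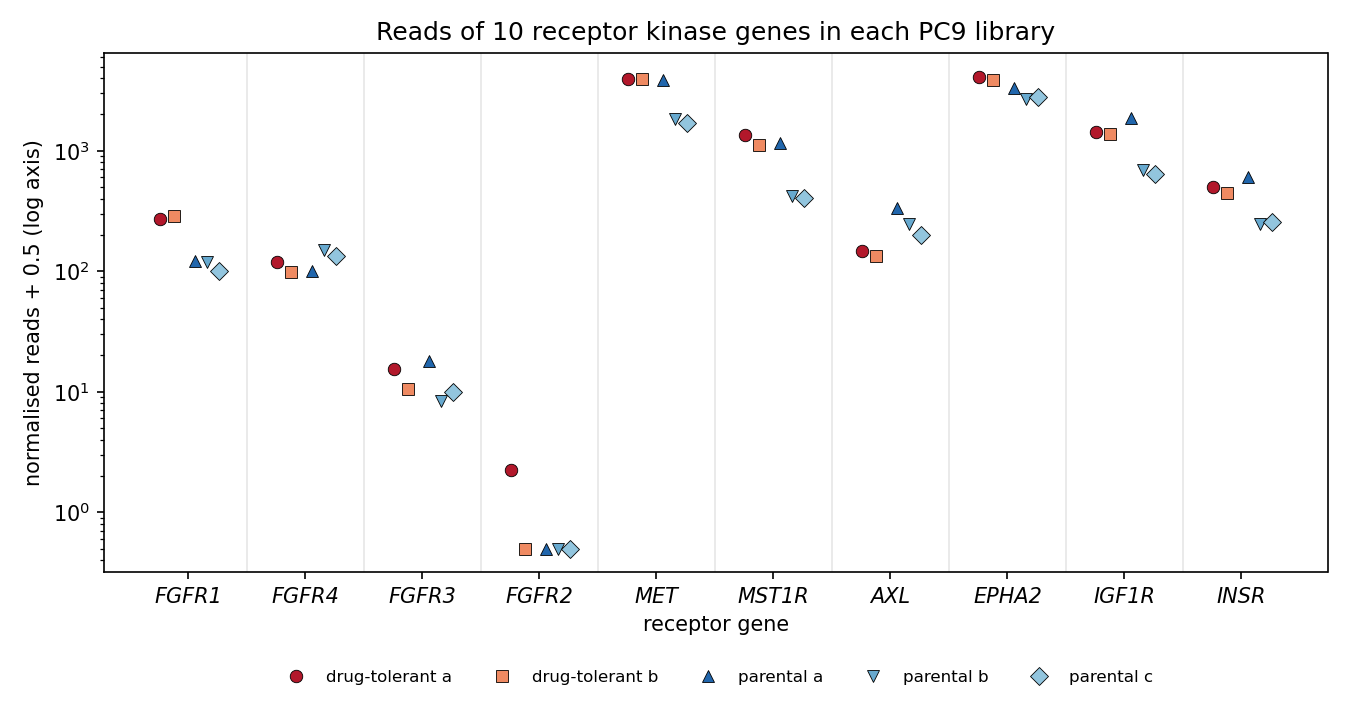
Normalised reads plus 0.5 (log axis) of the 10 receptor genes in the 5 libraries, 1 symbol per library, drug-tolerant libraries left of parental ones in each column. FGFR1 is high in both drug-tolerant libraries and AXL is low in both, while parental a sits with or above the drug-tolerant libraries for MET, MST1R, IGF1R and INSR.

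FGFR1, a receptor for fibroblast growth factors (ENSG00000077782; chromosome 8, 38400215 to 38468834, minus strand, GRCh38), had 270 and 285 normalised reads in drug-tolerant libraries, against 120, 118 and 99.9 in parental libraries. These values rest on 306 and 225 reads in drug-tolerant libraries and on 143, 120 and 96 reads in parental libraries. Both drug-tolerant libraries lay above all 3 parental ones, parental a included. FGFR1 averaged 278 ± 10.9 normalised reads in drug-tolerant cells and 113 ± 11.1 in parental cells (SD, n = 2 and 3), a ratio of 2.46. In the authors' deposited table, whose fold changes are moderated towards 0, the log2 fold change was 1.15 ± 0.26 (SE), with an adjusted p of 0.00508 in DESeq2's Wald test. The call was lost with the trend of fold change with transcript length and GC content taken out (adjusted p 0.0751), with the deposited score centred and scaled (0.971) and with limma on the recovered reads of all libraries (0.367). The scaled score left 1 gene called in the whole table and limma called 0 of 14207 resolved genes, so neither of those losses is particular to FGFR1. FGFR1 ranked 28 by p among the 15223 genes of the authors' deposited table that have an adjusted p. An exact two-sided permutation test on its 5 values gave p = 0.1, the smallest that 2 libraries against 3 allow.

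The other FGF receptors showed no comparable difference. FGFR4 (ENSG00000160867; chromosome 5, 177086886 to 177098144), the receptor that pairs with KLB to bind FGF19, had 119 and 98.9 normalised reads in drug-tolerant libraries, against 99.1, 150 and 133 in parental libraries. Parental a lay inside the drug-tolerant range, and the groups overlapped. The log2 fold change of FGFR4 in the authors' deposited table was -0.19 ± 0.30, with an adjusted p of 0.769 (DESeq2) and a 95% interval from -0.78 to 0.41. The log2 ratio of its reads was 0.14 against parental a and -0.38 against parental b and c.

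FGFR3 (ENSG00000068078; chromosome 4, 1793293 to 1808872) was counted by 17 and 8 reads in drug-tolerant libraries, against 21, 8 and 9 in parental libraries. At 8 reads the exact Poisson 95% interval, which covers counting error only, runs from 3.45 to 15.8, so a small difference was not detectable at this depth. Its log2 fold change was 0.06 ± 0.41 in the authors' deposited table, and the log2 ratio of its reads was -0.47 against parental a and 0.52 against parental b and c. FGFR2 (ENSG00000066468; chromosome 10, 121478334 to 121598458) had 2 reads in drug-tolerant a and 0 reads in drug-tolerant b and in every parental library. By the one-sided 95% limit a count of 0 allows up to 3 reads, so the groups cannot be told apart for FGFR2, and it has no adjusted p in the authors' deposited table.

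Within the FGF receptor family, the shares of FGFR1 and FGFR4 did not overlap between the groups, while those of FGFR3 and FGFR2 did. FGFR1 and FGFR4 make up nearly all of the sum, so the share of FGFR4 falls where that of FGFR1 rises. It is not a separate result, and the reads of FGFR4 themselves overlapped. FGFR1 made up 51.5% and 58.1% of the 4 receptors' reads per kilobase in drug-tolerant libraries, against 35.7%, 28.1% and 26.9% in parental libraries. FGFR4 made up 44.1% and 39.1% in drug-tolerant libraries, against 57.1%, 69.4% and 69.6% in parental libraries. FGFR1 was thus above FGFR4 per kilobase in both drug-tolerant libraries, at 1.17 and 1.49 times, and below it in all 3 parental libraries, at 0.625, 0.404 and 0.387 times. This order depends on the transcript lengths used, 6054 and 3122 nucleotides. In normalised reads, FGFR1 was above FGFR4 in parental a (120 against 99.1) and below it in parental b (118 against 150) and c (99.9 against 133). In bulk RNA, fewer cells carrying a transcript and less transcript per cell cannot be told apart.

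**Figure D2:**
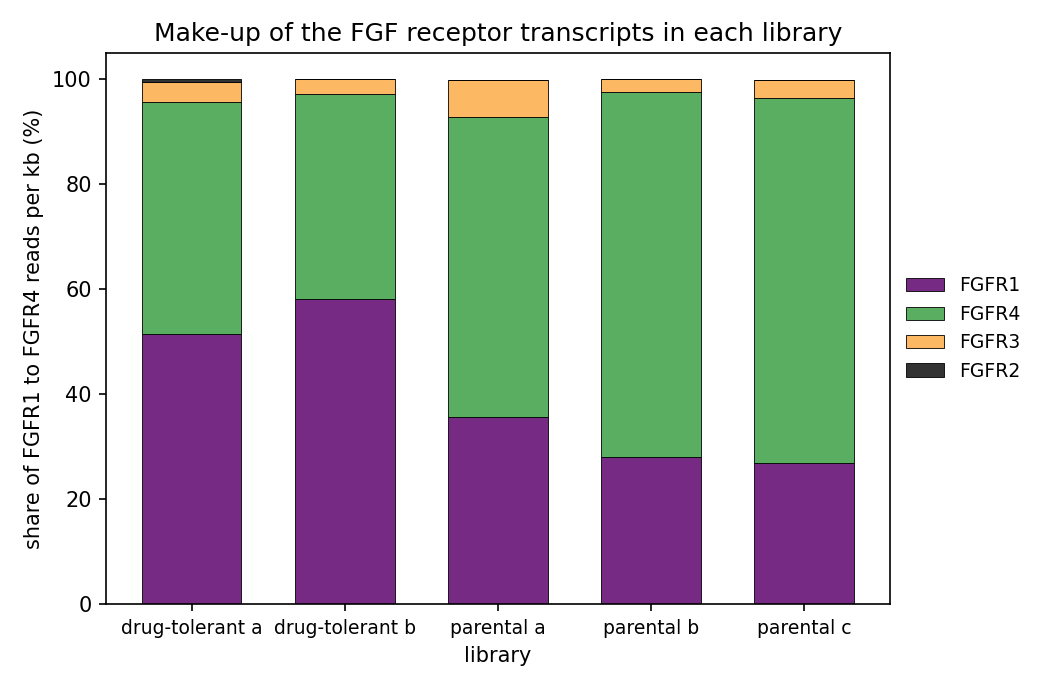
Share of FGFR1, FGFR4, FGFR3 and FGFR2 in their summed normalised reads per kilobase of transcript (percent, stacked bars), 1 bar per library with drug-tolerant libraries on the left. FGFR1 is the largest part in both drug-tolerant libraries (51.5% and 58.1%) and FGFR4 in all 3 parental libraries (57.1% to 69.6%).

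MET, the receptor for hepatocyte growth factor (ENSG00000105976; chromosome 7, 116672390 to 116798386, plus strand), had 3955 and 3924 normalised reads in drug-tolerant libraries, against 3844, 1817 and 1713 in parental libraries. Both drug-tolerant values lay above all parental ones, but parental a was close to both of them. The log2 ratio of drug-tolerant over parental reads was 0.04 against parental a alone and 1.16 against the mean of parental b and c. In the authors' deposited table MET was at 0.53 ± 0.34 with an adjusted p of 0.51 (DESeq2), and was not called. The 95% interval of that log2 fold change runs from -0.13 to 1.2.

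MST1R, also named RON, is the close relative of MET and binds macrophage-stimulating protein (ENSG00000164078; chromosome 3, 49887002 to 49903873). It had 1342 and 1119 normalised reads in drug-tolerant libraries, against 1161, 423 and 405 in parental libraries. Parental a lay between the drug-tolerant libraries, and parental b and c lay far below. The log2 ratio was 0.08 against parental a and 1.57 against parental b and c. MST1R stood at 0.64 ± 0.37 with an adjusted p of 0.494 (DESeq2) in the authors' deposited table. Per kilobase, MET was at 2.01 and 2.40 times MST1R in drug-tolerant libraries and at 2.26, 2.94 and 2.89 times in parental libraries.

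EPHA2, a receptor for ephrin-A ligands on neighbouring cells (ENSG00000142627; chromosome 1, 16124337 to 16156087, minus strand), had 4124 and 3898 normalised reads in drug-tolerant libraries, against 3344, 2691 and 2812 in parental libraries. All parental values lay below both drug-tolerant ones, and the log2 ratio was 0.26 against parental a and 0.54 against parental b and c. It averaged 4011 ± 160 normalised reads in drug-tolerant cells and 2949 ± 348 in parental cells (SD, n = 2 and 3), a ratio of 1.36. The deposited log2 fold change in the authors' table was 0.41 ± 0.22 with an adjusted p of 0.486 (DESeq2), so EPHA2 was not called.

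Both EPHA2 and MET had drug-tolerant libraries above all parental ones, a pattern held by 19.6% of resolved genes, and MET only narrowly over parental a. They are also the most abundant of the receptors per kilobase. The 250 bases before their RefSeq starts (GRCh38.p14) are shown for that reason, MET at chr7:116671946-116672195 on the plus strand and EPHA2 at chr1:16156070-16156319 on the minus strand, 5′ to 3′, with matches to the SP1 box GGGCGG in capitals.
MET: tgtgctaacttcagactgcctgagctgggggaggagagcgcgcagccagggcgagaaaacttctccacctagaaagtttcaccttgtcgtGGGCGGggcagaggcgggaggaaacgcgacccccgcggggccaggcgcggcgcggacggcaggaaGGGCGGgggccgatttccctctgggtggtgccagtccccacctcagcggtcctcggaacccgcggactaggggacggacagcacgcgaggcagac
EPHA2: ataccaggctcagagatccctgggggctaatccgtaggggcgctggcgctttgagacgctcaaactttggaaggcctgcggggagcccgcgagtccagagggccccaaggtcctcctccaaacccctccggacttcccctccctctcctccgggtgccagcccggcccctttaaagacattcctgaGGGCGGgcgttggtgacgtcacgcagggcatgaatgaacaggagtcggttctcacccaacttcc
The box was searched on both strands in windows of this length, and MET held 2 matches and EPHA2 held 1. The same box occurs in 42.6% of 35116 RefSeq promoter windows. All 6 members matched in the promoter table (FGFR3, MET, IGF1R, INSR, MST1R and EPHA2) held it at least once, and none of the 6 held the AP-1 site TGANTCA, which occurs in 6.6% of the windows. A match is a run of letters and not evidence of binding.

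AXL, a receptor of the TAM family that is activated by GAS6 (ENSG00000167601; chromosome 19, 41219203 to 41261766), was lower in drug-tolerant libraries. It had 148 and 133 normalised reads in drug-tolerant libraries, against 336, 247 and 201 in parental libraries. Both drug-tolerant libraries lay below all 3 parental ones, with averages of 141 ± 10.6 in drug-tolerant cells and 261 ± 68.6 in parental cells (SD, n = 2 and 3), a ratio of 0.539. The log2 ratio was -1.25 against parental a and -0.67 against parental b and c. AXL did not pass the test: in the authors' deposited table it was at -0.75 ± 0.30 with an unadjusted p of 0.0126 and an adjusted p of 0.373 (DESeq2). An unadjusted p under 0.05 with a lower level was given to 7.1% of all genes tested in the authors' deposited table.

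The other TAM receptors are MERTK and TYRO3, which were chosen for naming after their values were seen. MERTK had 45 and 39.3 normalised reads in drug-tolerant libraries, against 58.8, 55.0 and 64.5 in parental libraries. TYRO3 had 498 and 479 normalised reads in drug-tolerant libraries, against 407, 427 and 441 in parental libraries. The groups did not overlap for either gene, with MERTK lower and TYRO3 higher, patterns held by 16.5% and 19.6% of all resolved genes. Neither was called, at -0.40 ± 0.32 and 0.19 ± 0.22 in the authors' deposited table. Set against AXL, MET was at 19.1 and 21 times AXL per kilobase in drug-tolerant libraries and at 8.17, 5.26 and 6.09 times in parental libraries.

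IGF1R, the receptor for insulin-like growth factors (ENSG00000140443; chromosome 15, 98648539 to 98964530), had 1436 and 1367 normalised reads in drug-tolerant libraries, against 1879, 687 and 637 in parental libraries. INSR, the insulin receptor, which forms hybrids with IGF1R (ENSG00000171105; chromosome 19, 7112255 to 7294034), had 502 and 448 in drug-tolerant libraries, against 603, 248 and 255 in parental libraries. For both genes parental a was the highest library of all and parental b and c were the lowest. The sign of the difference therefore turned on the parental library used: the log2 ratio of IGF1R was -0.42 against parental a and 1.08 against parental b and c, and that of INSR was -0.34 and 0.92. Neither gene was called, at 0.28 ± 0.37 for IGF1R and 0.27 ± 0.36 for INSR in the authors' deposited table, with adjusted p of 0.715 and 0.709 (DESeq2) and a 95% interval for INSR from -0.43 to 0.97. These are the longest transcripts of the 10, at 12235 and 8954 nucleotides, and once the trend of fold change with length and GC content was taken out, their log2 fold changes were -0.09 and -0.07.

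Across the receptors, 9 of 10 were tested, and the authors' deposited table called 1 higher and 0 lower at an adjusted p under 0.05. Over all 15223 genes tested in the authors' deposited table, 0.263% were called higher and 0.289% lower. At an unadjusted p under 0.05 there was 1 receptor in each direction, FGFR1 and AXL, while 3.7% of all genes were higher and 7.1% lower in the authors' deposited table. The median log2 fold change of the 9 was 0.28, with 7 positive and 2 negative (3 of the 7 turned negative once the length and GC trend was taken out), against -0.018 over all genes in the authors' deposited table. Once that trend was taken out, the median of the 9 was -0.06, FGFR1 stood at 0.92 with an adjusted p of 0.0751 on the deposited error, and no receptor was called, beside 0.263% of all genes higher and 0.25% lower.

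**Figure D3:**
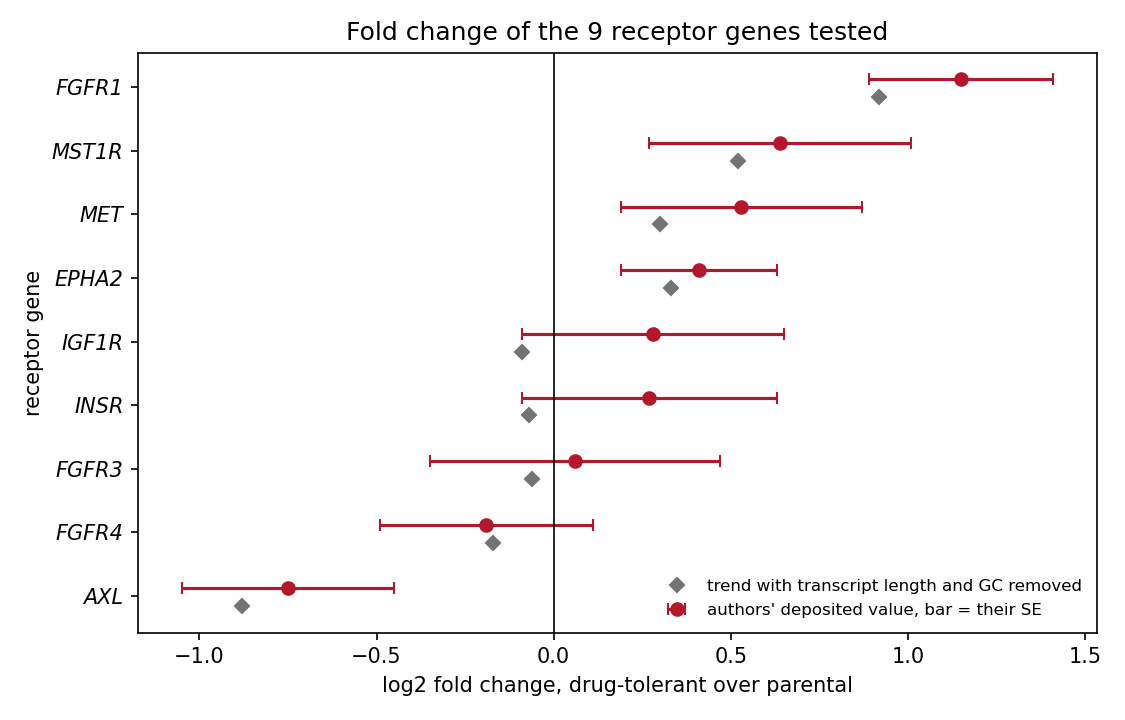
Log2 fold change of drug-tolerant over parental cells for the 9 receptors tested, ordered by the authors' deposited value (circles, bars are their SE), with the value once the length and GC trend was taken out (diamonds). FGFR1 at 1.15 and AXL at -0.75 stay far from 0 after the removal (0.92 and -0.88), while IGF1R, INSR and FGFR3 move across it.

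By library, 3 of the 9 receptors tested (FGFR1, MET and EPHA2) had both drug-tolerant libraries above all 3 parental ones, a pattern held by 19.6% of 14207 resolved genes, and AXL had both below, a pattern held by 16.5%. Without parental a, 7 of the 9 had both drug-tolerant libraries above parental b and c and the other 2 (AXL and FGFR4) had both below, but 41.7% and 44% of all resolved genes did the same. Parental a was at least 1.5 times the mean of parental b and c in 5 of the 9, namely IGF1R (2.84 times), MST1R (2.80), INSR (2.40), MET (2.18) and FGFR3 (1.99), and in 26.1% of resolved genes. FGFR1 was at 1.10 times and EPHA2 at 1.22 times. The log2 ratio of FGFR1 was 1.21 against parental a alone and 1.35 against parental b and c, and that of AXL was below 0 in both comparisons.

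**Figure D4:**
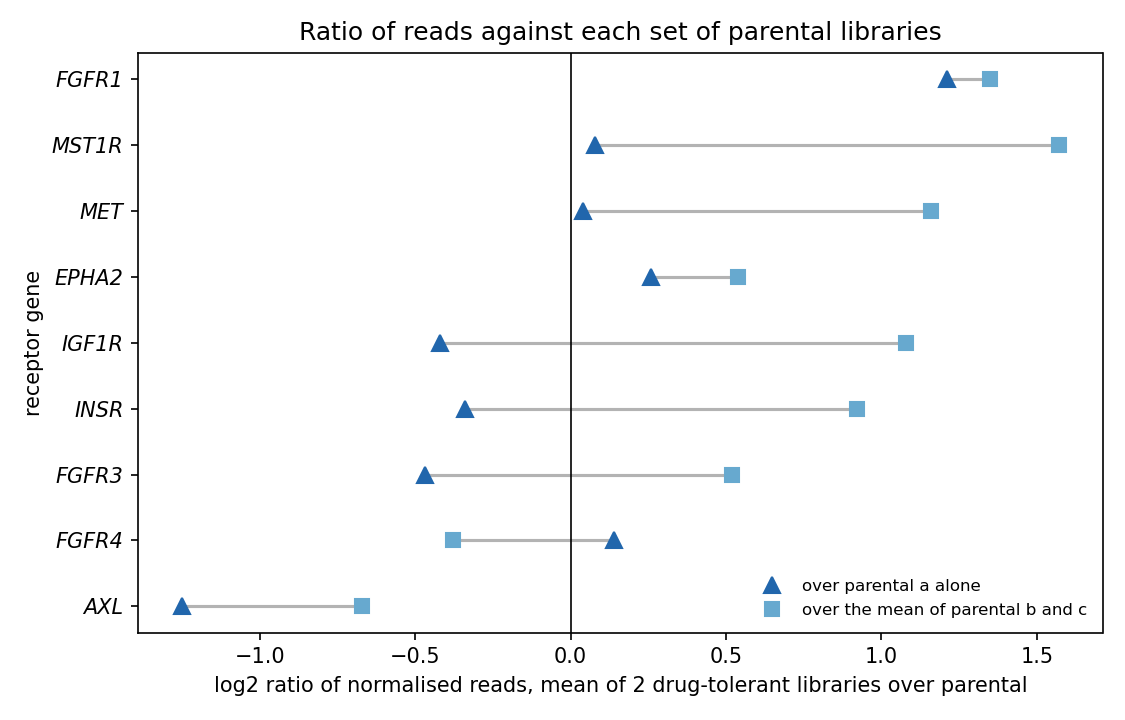
Log2 ratio of the mean normalised reads of the 2 drug-tolerant libraries over parental a alone (triangles) and over the mean of parental b and c (squares) for the 9 receptors tested. The points lie close together for FGFR1 (1.21 and 1.35), apart for MST1R (0.08 and 1.57) and MET (0.04 and 1.16), and on opposite sides of 0 for IGF1R, INSR, FGFR3 and FGFR4.

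A limma test on log2 of the recovered normalised reads, which was added after the data had been seen, called none of the 14207 resolved genes with all 5 libraries. At an unadjusted p under 0.05 it gave 1601 genes, 3 of them receptors, with FGFR1 at a log2 difference of 1.301 ± 0.174 (SE) and an adjusted p of 0.367. Without parental a, limma called 35.5% of the resolved genes higher and 36.7% lower. Under that setting 6 of the 9 receptors were higher (FGFR1, MET, MST1R, EPHA2, IGF1R and INSR) and 2 were lower (AXL and FGFR4), with FGFR1 at 1.35 ± 0.123 and MET at 1.158 ± 0.051. Calls this common across the transcriptome do not set the receptors apart.

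Among 20 other receptor tyrosine kinases tested, none was called in the authors' deposited table (DESeq2). At an unadjusted p under 0.05, 2 were higher and none lower, beside 3.7% and 7.1% of all genes tested. Their median log2 fold change was 0.20 in the authors' deposited table and -0.02 once the length and GC trend was taken out. EPHB6, an Eph receptor without kinase activity, had 3052 and 2633 normalised reads in drug-tolerant libraries, against 2230, 1816 and 1798 in parental libraries. EPHB3, a receptor for ephrin-B ligands, had 103 and 87.5 in drug-tolerant libraries, against 68.8, 42.3 and 50.0 in parental libraries. Both had drug-tolerant libraries above all parental ones, as did 19.6% of all resolved genes. They stood at 0.50 ± 0.23 and 0.66 ± 0.33 in the authors' deposited table, with adjusted p of 0.449 and 0.459 (DESeq2). LMTK2, a membrane kinase with a long tail, resembled MET, at 2029 and 2189 normalised reads in drug-tolerant libraries and 1989, 771 and 731 in parental libraries.

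Ligands of the 10 receptors were mostly lower, though none passed the test. Of 34 listed, 12 were tested, 0 were called and 2 had an unadjusted p under 0.05, both lower (DESeq2, authors' deposited table). At that unadjusted p, 7.1% of all genes tested were lower and 3.7% higher. The median log2 fold change was -0.37 in the authors' deposited table, and -0.25 once the length and GC trend was taken out. By library, 8 of 11 resolved genes of the ligand list had both drug-tolerant libraries below all parental ones, beside 16.5% of all resolved genes, and 1 had both above. FGF12 is among the 8, and the list also holds FGF14, both of which act mainly inside cells. FGF19 and PROS1, also among the 8, rest on few reads. Against parental b and c alone, 9 of the 11 lay below, beside 44% of all resolved genes.

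GAS6, the ligand of AXL, had 96.1 and 82.4 normalised reads in drug-tolerant libraries, against 155, 123 and 160 in parental libraries. The deposited log2 fold change of GAS6 in the authors' table was -0.60 ± 0.29, with an adjusted p of 0.452. PROS1, which also binds TAM receptors, averaged 8.71 normalised reads over all libraries in the authors' deposited table and had 6.17 and 1.27 in drug-tolerant libraries, against 16.8, 7.86 and 11.4 in parental libraries. For AXL, MERTK, GAS6 and PROS1 the groups did not overlap and drug-tolerant libraries were lower, whereas TYRO3 was higher. Of all resolved genes, 16.5% were lower and 19.6% higher in this way. None of these genes was called, and PROS1 rests on few reads.

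EFNA1 and EFNA4 are ephrin-A ligands, which bind EPHA2 among other Eph receptors. EFNA1 had 273 and 271 normalised reads in drug-tolerant libraries, against 318, 497 and 478 in parental libraries. EFNA4 had 79.4 and 84.9 in drug-tolerant libraries, against 85.6, 156 and 193 in parental libraries. Both lay below every parental library, EFNA4 by a narrow margin under parental a, and in the authors' deposited table they stood at -0.57 ± 0.28 and -0.62 ± 0.35, with adjusted p of 0.458 and 0.488. Of the other ephrin-A genes tested, EFNA5 had 698 and 738 in drug-tolerant libraries, against 788, 815 and 860 in parental libraries, and EFNA3 overlapped.

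None of the 5 FGF genes tested from the ligand list was called. FGF12 and FGF14, which act mainly inside cells and were picked here after their values were seen, had means of 124 and 113 in the authors' deposited table. FGF14 had 163 and 129 normalised reads in drug-tolerant libraries, against 175, 47.2 and 50 in parental libraries, so parental a was again the highest. FGF19, the ligand of FGFR4 with KLB, had 5.29 and 1.27 normalised reads in drug-tolerant libraries, against 5.88, 16.7 and 16.7 in parental libraries. It rests on few reads, with a mean of 9.16 in the authors' deposited table, and lay only narrowly under parental a. FGF1, which binds all 4 FGF receptors, had 32.6 and 21.6 in drug-tolerant libraries, against 19.3, 17.7 and 18.7 in parental libraries. MST1, the ligand of MST1R, stood at 0.59 ± 0.41 with a mean of 39.3 in the authors' deposited table. Reads of MST1 per library were not solved.

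**Figure D5:**
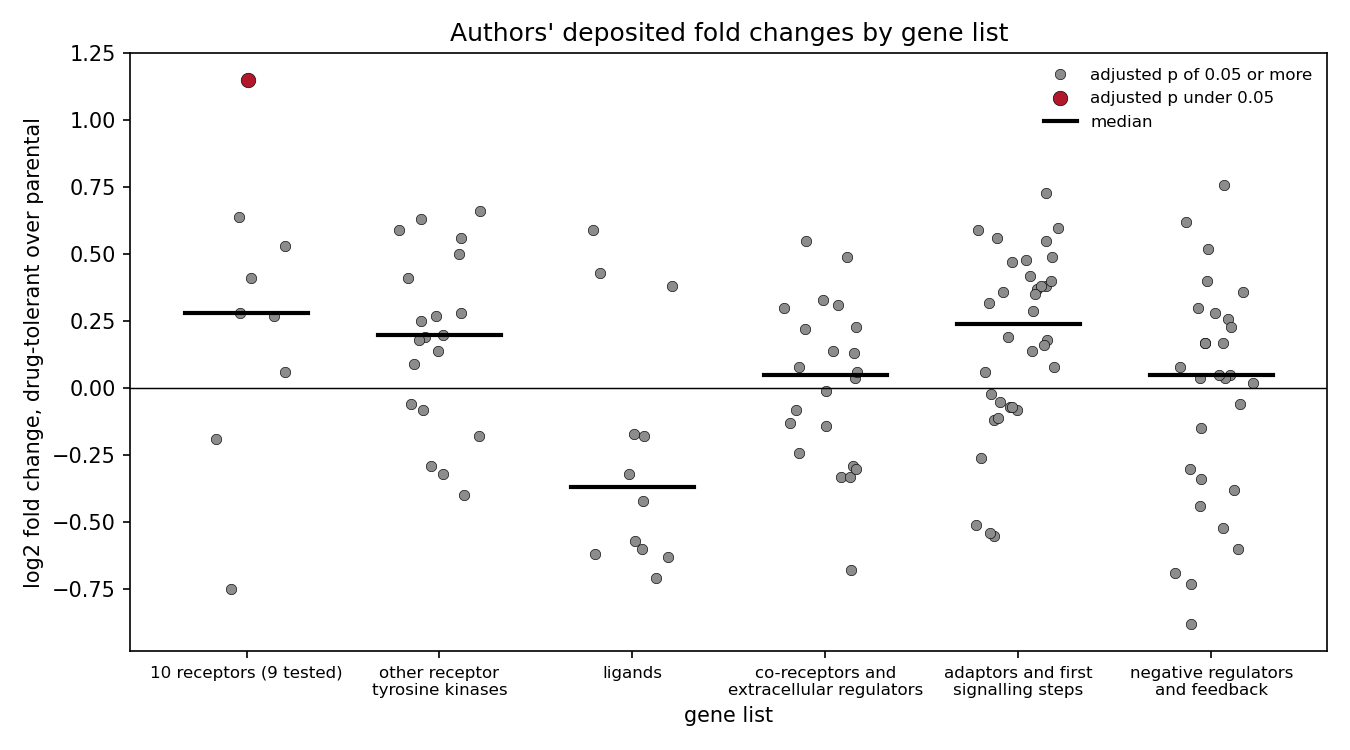
Authors' deposited log2 fold changes of drug-tolerant over parental cells, 1 point per gene tested, for the 9 receptors tested and 5 lists of genes around them, with each list's median as a bar. FGFR1, in red, is the single gene with an adjusted p under 0.05, and the ligands have the lowest median (-0.37).

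Of 22 co-receptors and extracellular regulators tested, none was called and none had an unadjusted p under 0.05 in the authors' deposited table (DESeq2), with a median of 0.05. The shares of all genes tested at that unadjusted p were 3.7% higher and 7.1% lower. IGFBP6, which binds IGF2, had 1317 and 1217 normalised reads in drug-tolerant libraries, against 1049, 3008 and 3243 in parental libraries, the mirror image of IGF1R in that parental a was the lowest. LRP6, a WNT co-receptor, had 1791 and 1757 in drug-tolerant libraries, against 1914, 551 and 501 in parental libraries. IGFBP3, the main carrier of insulin-like growth factors in blood, stood at -0.33 ± 0.26 with a mean of 10487 in the authors' deposited table.

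Among 34 adaptors and first signalling steps tested, 0 were called and 2 had an unadjusted p under 0.05, both higher, in the authors' deposited table (DESeq2). Of all genes tested, 3.7% were higher and 7.1% lower at that unadjusted p. The median was 0.24 in the authors' deposited table and 0.11 with the trend removed, and 14 of 32 resolved genes had both drug-tolerant libraries above all parental ones, beside 19.6% of all resolved genes, while 2 (PIK3CD and SRC) had both below. Against parental b and c alone, 21 of the 32 lay above and 10 below, beside 41.7% and 44% of all resolved genes. PIK3R3 and PIK3R1 encode regulatory subunits of PI3K. PIK3R3 had 710 and 730 normalised reads in drug-tolerant libraries, against 567, 387 and 448 in parental libraries, and PIK3R1 had 558 and 526, against 458, 194 and 153. SRC, a kinase that many receptors recruit, was the other way round, at 180 and 148 in drug-tolerant libraries and 207, 257 and 298 in parental libraries. Their deposited log2 fold changes in the authors' table were 0.55 ± 0.26, 0.73 ± 0.37 and -0.54 ± 0.28, with adjusted p from 0.449 to 0.469.

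Negative regulators gave the lowest adjusted p after FGFR1 among the lists around the receptors. Of 29 tested, 0 were called and 4 had an unadjusted p under 0.05, 1 higher and 3 lower, in the authors' deposited table (DESeq2). Over all genes tested, 3.7% were higher and 7.1% lower at that unadjusted p. The list's median log2 fold change was 0.05, and -0.15 with the length and GC trend removed. By library, 4 of 26 resolved genes lay above all parental libraries, beside 19.6% of all resolved genes. Another 6 lay below all of them, beside 16.5%. ERRFI1, a feedback inhibitor of EGFR and its relatives, had 1821 and 1981 normalised reads in drug-tolerant libraries, against 3435, 3276 and 3129 in parental libraries. The groups lay far apart and the parental libraries were close together, with a log2 ratio of -0.85 against parental a and -0.75 against parental b and c. In the authors' deposited table ERRFI1 was at -0.73 ± 0.21 with an adjusted p of 0.0648, just short of the threshold.

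SOCS2, a suppressor of cytokine and growth hormone signalling, had 37.9 and 43.1 normalised reads in drug-tolerant libraries, against 64.6, 96.3 and 104 in parental libraries. SPRY4, a Sprouty protein that dampens ERK signalling and is induced by it, had 1683 and 1606 in drug-tolerant libraries, against 1235, 681 and 703 in parental libraries. They stood at -0.88 ± 0.34 and 0.76 ± 0.31 in the authors' deposited table, with adjusted p of 0.326 and 0.378. The Sprouty genes differed in direction: SPRY1 had 341 and 354 normalised reads in drug-tolerant libraries, against 604, 472 and 477 in parental libraries, so it was lower where SPRY4 was higher, with a call for neither.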

How the data were processed

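Messenger RNA of 2 drug-tolerant and 3 parental PC9 libraries was measured. Per the submitters' processing notes, FastQC, STAR and DESeq2 were used with build hg38. The sources used here do not give versions, counting tool or annotation. As a level, the authors deposited a signal per gene, its reads divided by size factors and averaged over 5 libraries. The authors deposited log2 fold changes moderated towards 0, with errors on the same log2 scale. The deposited Wald score is the one divided by the other, and the authors' p-values carry a Benjamini-Hochberg adjustment for 15223 genes. A gene is called at an adjusted p under 0.05. No further filter on low values was used, and 9 of the 10 receptors have an adjusted p.

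Whole reads per library were solved from up to 3 deposited numbers per gene. The mean is a sum of reads times 1 step per library, and 5552 distinct low means gave the 5 steps with no second solution. Above a mean of 30, the fold change and its error fix the rest under the authors' moderated fit, rebuilt here, with 1 dispersion per gene. The tolerance was 3e-09 in the log2 fold change. The dispersion estimated from the reads also had to equal the one that the error implies, to within 0.01 on the log scale. Up to a mean of 30, every set of reads that met the mean was listed. A single such set was taken as it stood. Where there were several, the fold change and its error decided, without the dispersion check. The solution was unique for 14207 of the 14537 genes tested with a mean of at most 4000 (97.7%), and the largest error over the receptors was 8e-10. The solver was tested on simulated data with known reads. Reads in 3 libraries lower the fold change and reads in 2 raise it, which assigns the groups by the labels' library numbers, so positive values are higher in drug-tolerant cells.

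Transcript lengths are those of the longest transcript in the GENCODE 29 basic set, and promoters are RefSeq's. The trend of log2 fold change with length and GC content was fitted by splines (patsy 1.0.2) over 12449 protein-coding genes, and scores and p were recomputed with the deposited error. limma 3.58.1 in R 4.3.3 was run on log2 of normalised reads plus 0.5. Both were tested on simulated data. For limma these had 8-fold changes, a dispersion below the fitted trend and no split among parental libraries. That setting differs from the real libraries, so it does not show how limma performs on them. Intervals of reads cover counting error only. The count tests planned for a count table were not used, since the table holds a comparison.

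The receptors and the gene lists were chosen with earlier results of these data known. All 10 receptors are named, and from each of the 9 other lists every called gene and up to 3 more, taken by adjusted p from the smallest up where the mean is 10 or more. Marker lists had 3 such genes in the epithelial list and fewer in the others, and their values are given where a result touches them. Further genes were chosen after their values were seen.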

Additional observations from a re-analysis of the deposited data

How the results depend on the processing

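The count of receptors called higher was 1 at an adjusted p under 0.01, with a minimum log2 fold change of 1, with a mean of at least 50 and with no filter on low means. It was 0 once the length and GC trend was taken out, 0 with the score centred and scaled, which left 1 gene called in the whole table, and 0 with limma on all libraries, which called 0 of 14207 resolved genes. FGFR1 then had adjusted p of 0.0751, 0.971 and 0.367, and its log2 fold change was 0.92 without the trend. Leaving out each library in turn, limma called 0 to 6 receptors higher, 0 to 2 lower, and 0 to 80 genes of the other 5 lists, the upper end without parental a. Receptors with all drug-tolerant libraries above all parental ones numbered 3 to 7 (7 without parental a, 5 without drug-tolerant b), and those with all below 1 to 2 (2 without parental a or without drug-tolerant a). Direction reversed without the trend for FGFR3 (-0.06), IGF1R (-0.09) and INSR (-0.07), none of which was called; the cause was not tested. Subtracting the median of all genes turned no receptor. No paired analysis was possible because the libraries solved from the table carry no replicate numbers. With 2 libraries against 3, depth limits FGFR3 and FGFR2, and the part of the split between parental a and parental b and c was not tested.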

Other observations

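Several genes around the receptors shared the library pattern of IGF1R, with parental a beside the drug-tolerant libraries and parental b and c far lower. Parental a was at least 1.5 times the mean of parental b and c in 26.1% of all resolved genes, so a high parental a is not particular to them. IGF2R, which clears IGF2 from the cell surface, had 4537 and 4574 normalised reads in drug-tolerant libraries, against 5504, 1029 and 1042 in parental libraries. EPHA4, an Eph receptor for ephrins of both classes, had 497 and 446 in drug-tolerant libraries, against 502, 120 and 142 in parental libraries. PLXNB1, a semaphorin receptor that associates with MET, had 286 and 256 in drug-tolerant libraries, against 367, 119 and 109 in parental libraries. HRAS showed the opposite pattern, with 282 and 261 in drug-tolerant libraries, against 209, 519 and 585 in parental libraries. Their transcripts are 14044, 6346, 7308 and 1233 nucleotides long. None was called in the authors' deposited table, and these genes were chosen after their values were seen.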
